A study of Mus musculus with 31 samples.

Results

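Gbx2, Lhx9, Olig3, Barhl1, Barhl2, Dbx1, Pou4f1 and Ebf1 are transcription factor genes of thalamic progenitors and neurons. The 8 genes were taken as a named list, each matched by Ensembl identifier, and all 8 were found among the 34865 genes of the bulk table and the 55487 genes of the single-cell table. Bulk RNA-seq covered 3 libraries of dorsal and 3 of ventral diencephalon from wild-type mouse embryos at E10.5 (embryonic day). Smart-seq2, which reads whole transcripts from single cells, covered 13 Axin2-null and 12 Axin2 wild-type libraries from E11.5 medial cortex. The null and wild-type Smart-seq2 libraries came from embryos carrying Emx1-CreERT2, which recombines in cells of the dorsal telencephalon. These embryos also carried the MADM-11 mosaic cassettes on chromosome 11 and a single Axin2LacZ allele. Null cells and wild-type cells thus arose in the same tissue. The labels give no animal for any library, and p-values therefore measure the spread between libraries, which may be technical. By its title, the study asks how Axin2, a feedback inhibitor of Wnt signalling, acts in competition among stem cells.

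The thalamus forms in the caudal diencephalon, next to the zona limitans, a signalling boundary that makes Sonic hedgehog. Olig3, a basic helix-loop-helix factor, and Dbx1, a homeodomain factor, are made in dividing progenitors of the ventricular wall. Gbx2 and Lhx9, both homeodomain factors, come on as thalamic neurons leave the cell cycle. Barhl1 and Barhl2 are homeodomain paralogs of the diencephalon, Barhl1 being best known from the mammillary hypothalamus as well. Pou4f1 marks habenular neurons and sensory neurons, and Ebf1 is an early postmitotic neuronal factor that is also needed for B cells.

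Start-site sequences of 4 of these genes are shown because Gbx2 had the largest fold change, Dbx1 ran against the others and Barhl1 and Barhl2 are paralogs with unequal folds. They are RefSeq windows of build GRCm38.p6, from 250 bases before to 50 after a transcript start, written 5′ to 3′ on the gene's strand, which is the minus strand for all 4. All 8 genes had such a window, and 10 windows were matched in all. Capitals mark every match to CANNTG (the E-box read by helix-loop-helix factors, in 72.3% of all 32851 windows of this length), TAATTA (a homeodomain core, 5.29%) and CTTTGA (a TCF core, 16.0%), searched on both strands.
Gbx2, chr1:89931127-89931426: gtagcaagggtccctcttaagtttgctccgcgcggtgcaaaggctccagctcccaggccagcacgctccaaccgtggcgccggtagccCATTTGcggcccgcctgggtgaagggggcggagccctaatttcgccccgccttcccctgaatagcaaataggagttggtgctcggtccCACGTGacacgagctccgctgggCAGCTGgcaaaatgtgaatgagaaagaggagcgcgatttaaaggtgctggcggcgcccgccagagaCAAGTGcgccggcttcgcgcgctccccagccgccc
Dbx1, chr7:49636786-49637085: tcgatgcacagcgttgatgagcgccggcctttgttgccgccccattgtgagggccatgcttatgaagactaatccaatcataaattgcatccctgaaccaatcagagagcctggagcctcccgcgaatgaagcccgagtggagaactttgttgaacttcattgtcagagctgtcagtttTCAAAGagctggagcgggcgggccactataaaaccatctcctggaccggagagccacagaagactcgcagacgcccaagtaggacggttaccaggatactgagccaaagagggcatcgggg
Barhl1, chr2:28916619-28916918: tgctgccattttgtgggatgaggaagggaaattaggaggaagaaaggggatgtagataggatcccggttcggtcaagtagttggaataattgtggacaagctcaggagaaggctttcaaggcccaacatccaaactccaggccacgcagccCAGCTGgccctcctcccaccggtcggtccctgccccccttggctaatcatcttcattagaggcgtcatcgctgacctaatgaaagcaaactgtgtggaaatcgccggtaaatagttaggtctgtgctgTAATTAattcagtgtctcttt
Barhl2, chr5:106458117-106458416: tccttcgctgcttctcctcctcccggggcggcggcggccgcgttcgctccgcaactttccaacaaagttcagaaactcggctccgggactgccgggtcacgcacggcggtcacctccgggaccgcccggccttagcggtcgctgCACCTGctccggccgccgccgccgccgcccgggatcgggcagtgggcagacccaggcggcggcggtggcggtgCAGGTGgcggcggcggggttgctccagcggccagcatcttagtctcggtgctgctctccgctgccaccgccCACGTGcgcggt

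The Gbx2 window held 4 E-box matches, among them CACGTG at position -74 and CAGCTG at position -51 from the start, and the Barhl2 window held 3. The Dbx1 window held no E-box match and 1 TCF core, read as TCAAAG at position -71. Barhl1 and Ebf1 had 2 windows each, and the Barhl1 window printed is the one at the annotated start of the gene. It held 1 E-box match and the only TAATTA of the 10 windows, at position 29, while the other Barhl1 window held 2 E-box matches. CATATG, which is an E-box form (3.91% of all windows), the palindromic EBF motif (0.904%) and TGGGTGGTC for GLI proteins (0.253%) had no match in any of the 10 windows. The windows also differed in base composition, with 73.7% G and C for Barhl2, 64.7% for Gbx2, 54.0% for Dbx1 and 50.3% for Barhl1, against a median of 52.7% over all windows. A match is a string of letters and not a measured site.

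In bulk libraries of 17604166 to 20838002 counts, 7 of the 8 genes were higher in dorsal diencephalon and Dbx1 was lower. All 8 passed the minimum for testing and the threshold of 0.05 on the adjusted p (edgeR quasi-likelihood test, adjusted over 14701 genes), and in all 8 the 3 dorsal libraries did not overlap the 3 ventral ones. Over all genes tested, 6.95% were called higher in dorsal and 9.39% higher in ventral, while 18.7% had all dorsal libraries above all ventral ones and 20.1% the reverse. The median log2 fold change, dorsal over ventral, was 4.38 over the 8 genes and 0.01 over all genes tested. The dorsal background moved with single libraries. It was 1021 genes over all libraries. Leaving out dorsal library 1 gave 492 and dorsal library 2 gave 542, while leaving out ventral library 1 gave 528, ventral library 2 gave 599 and ventral library 3 gave 1647. The 1381 genes called higher in ventral became 851 when dorsal library 1 was left out, 918 for ventral library 1 and 897 for ventral library 2.

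**Figure D1:**
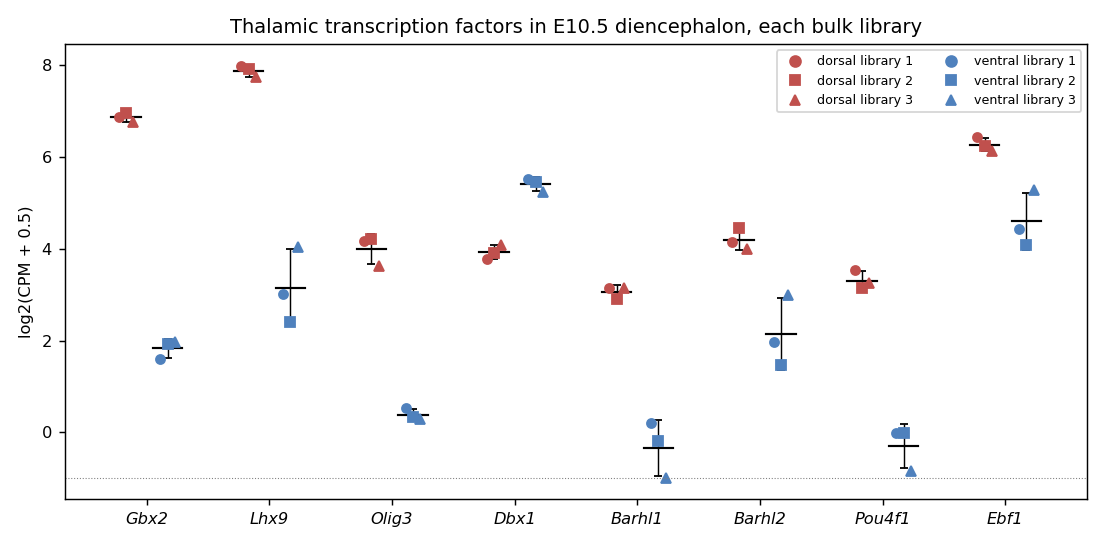
Expression of the 8 genes in each bulk library as log2(CPM + 0.5), CPM being counts scaled to the TMM-adjusted library size, with dorsal libraries in red left of ventral libraries in blue. Bars are means and whiskers are SDs of the 3 libraries on that scale, and the dotted line marks 0 CPM. Dorsal points lie above ventral points for 7 genes and below them for Dbx1.

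The progenitor factors went opposite ways. Olig3 (ENSMUSG00000045591, chromosome 10, 19356533 to 19358604) was at 17.4, 18.0 and 11.8 CPM in the dorsal libraries, against 0.942, 0.754 and 0.722 CPM in the ventral libraries. All 3 dorsal libraries stood far above the ventral ones, and dorsal library 3 was the lowest of the dorsal set. The means differed 19.5-fold, and the log2 fold change was 4.28 (standard error, SE, 0.39; adjusted p = 0.000379, edgeR).

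Dbx1 (ENSMUSG00000030507, chromosome 7, 49631499 to 49636849) was at 13.3, 14.4 and 16.5 CPM in dorsal, against 45.5, 43.4 and 37.4 CPM in ventral. It was the most even of the 8 in ventral, with a coefficient of variation of 9.99%, and its dorsal and ventral ranges were far apart. Its log2 fold change was -1.52 (SE 0.21, adjusted p = 0.00231, edgeR), and ventral was 2.86-fold higher. Dbx1 was thus present at a clear level in both regions, unlike Olig3.

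Both factors of newly formed thalamic neurons were abundant in dorsal and low in ventral. Gbx2 (ENSMUSG00000034486, chromosome 1, 89927956 to 89931179), needed for thalamic neurons and their axons to the cortex, was at 117, 125 and 108 CPM in dorsal, against 2.53, 3.29 and 3.44 CPM in ventral. Neither region varied much, and the regions differed 37.7-fold. The log2 fold change of 5.24 (SE 0.22, adjusted p = 3.95e-05, edgeR) was the largest of the 8 genes, and it ranked 534 by absolute size among the 14701 genes tested.

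Lhx9 (ENSMUSG00000019230, chromosome 1, 138825186 to 138848577), a LIM-homeodomain gene, was at 254, 240.5 and 213 CPM in dorsal, against 7.59, 4.79 and 16.0 CPM in ventral. The dorsal libraries lay close together, while ventral library 3 held 3.35 times the level of ventral library 2. The log2 fold change was 4.64 (SE 0.44, adjusted p = 0.000450, edgeR), with a 24.9-fold difference of means.

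The Barhl paralogs were both higher in dorsal, by unequal amounts. Barhl1 (ENSMUSG00000026805, chromosome 2, 28907679 to 28916668) had 175, 143 and 152 counts in dorsal, against 13, 7 and 0 in ventral, which is 8.30, 6.98 and 8.40 CPM against 0.645, 0.377 and 0 CPM. Its log2 fold change was 4.49 (SE 0.95, adjusted p = 0.0154, edgeR). The SE was the widest of the 8, beside a ventral library with no count. The call was lost when dorsal library 1 (4.43, adjusted p = 0.0608, edgeR) or ventral library 2 (4.56, adjusted p = 0.0534, edgeR) was left out.

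Barhl2 (ENSMUSG00000034384, chromosome 5, 106452523 to 106458166), known from the diencephalon and the retina, was at 17.3, 21.3 and 15.4 CPM in dorsal, against 3.42, 2.26 and 7.49 CPM in ventral. Ventral library 3 was again the highest ventral library, and the groups did not overlap. The log2 fold change was 2.03 (SE 0.47, adjusted p = 0.0221, edgeR). Its call was lost without dorsal library 1 (adjusted p = 0.0707, edgeR), dorsal library 2 (0.0862), ventral library 1 (0.0907) or ventral library 2 (0.0571), with log2 fold changes from 1.72 to 2.06 in those 4 fits.

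Within a library, the log2 ratio of Barhl1 to Barhl2 CPM, with 0.5 added to each, was -1.01, -1.54 and -0.84 in dorsal, against -1.78, -1.66 and -3.999 in ventral. The groups did not overlap, but dorsal library 2 lay next to ventral libraries 1 and 2. The mean difference of 1.35 gave a two-sided exact permutation p of 0.1, the smallest that 3 against 3 libraries allow. It was 0.58 without ventral library 3 and 2.43 with 0.1 added in place of 0.5, so its size rested on the library without a Barhl1 count.

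Pou4f1 (ENSMUSG00000048349, chromosome 14, 104461676 to 104467999), the habenular and sensory neuron gene, was at 11.1, 8.34 and 9.01 CPM in dorsal, against 0.496, 0.485 and 0.0555 CPM in ventral. The ventral values rest on 10, 9 and 1 counts. The log2 fold change was 4.74 (SE 0.72, adjusted p = 0.00367, edgeR). Because Pou4f1 also marks sensory ganglia, genes of that tissue were read beside it. Their summed level over 9 genes was 14.0 to 16.5 CPM in dorsal, against 12.99 to 22.8 CPM in ventral, and 0 of 4 tested passed (edgeR; the other 5 were under the minimum). At an unadjusted p under 0.05 it was 1 of 4, higher in ventral, and DESeq2 also called 1.

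Ebf1 (ENSMUSG00000057098, chromosome 11, 44617317 to 45008091) lies on the chromosome that also holds Axin2. It was at 85.7, 75.5 and 69.8 CPM in dorsal, against 21.1, 16.4 and 38.4 CPM in ventral. The regions did not overlap, with ventral library 3 the closest to dorsal. The log2 fold change of 1.61 (SE 0.32, adjusted p = 0.0116, edgeR) was the smallest of the 7 that were higher in dorsal, and the call was lost without ventral library 1 (1.49, adjusted p = 0.0567, edgeR). Ebf1 is also a gene of B cells and mesenchyme. The 7 B cell genes summed to 2.05 to 5.25 CPM in dorsal, against 52.7 to 230 CPM in ventral, opposite in direction to Ebf1, with Jchain and Cd74 the only ones tested. The 10 mesenchyme genes summed to 26.4 to 29.4 CPM in dorsal, against 26.0 to 49.2 CPM in ventral, and 0 of 7 tested passed (edgeR). At an unadjusted p under 0.05 there were 2, both higher in ventral, and DESeq2 called 1. The list was mixed in direction, with a median log2 fold change of -0.20. Col3a1 (1.34, adjusted p = 0.194, edgeR) and Prrx1 (0.91, adjusted p = 0.283, edgeR) had higher means in dorsal, as Ebf1 did.

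**Figure D2:**
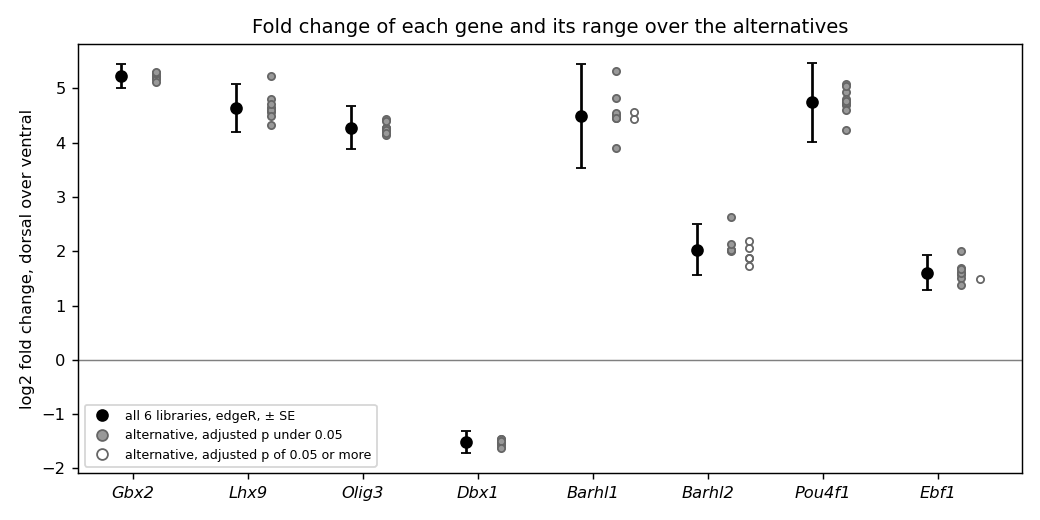
Log2 fold change, dorsal over ventral, of each gene. Black points and whiskers are the edgeR value with its SE over all 6 libraries, and the points to their right are the alternatives, which leave out a library or change the scaling, filter, test or block, open where the adjusted p was 0.05 or more. Every point of the 7 dorsal genes lies above 0 and every point of Dbx1 below it, and the open points belong to Barhl1, Barhl2 and Ebf1.

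Levels of different genes were compared per length, as CPM per kb of annotated exon. In dorsal, Gbx2 was at 53.5 ± 3.94 and Lhx9 at 24.8 ± 2.22 CPM per kb (SD, n = 3 each), and these top 2 stood apart from each other and from the rest. Ebf1 (7.89 ± 0.826), Barhl2 (7.77 ± 1.29), Olig3 (7.60 ± 1.64) and Dbx1 (7.05 ± 0.774) came next, each overlapping its neighbour in the order within the SDs, and Pou4f1 (2.03 ± 0.302) and Barhl1 (2.02 ± 0.203) closed the order without differing beyond theirs. In ventral the order began with Dbx1 at 20.1 ± 2.01 CPM per kb, far above Ebf1 (2.59 ± 1.19), Barhl2 (1.90 ± 1.19), Gbx2 (1.42 ± 0.224) and Lhx9 (0.998 ± 0.617), whose neighbours in the order overlapped. Olig3 followed at 0.389 ± 0.0575 CPM per kb, and Barhl1 (0.0872 ± 0.0829) and Pou4f1 (0.0739 ± 0.0537) were lowest. Exon length was the union of all annotated transcripts, which lowers the values of genes with long alternative ends.

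The 8-gene total had a different make-up in each region. It summed to 116, 119 and 103 CPM per kb in dorsal and to 28.1, 26.0 and 28.7 CPM per kb in ventral. Gbx2 took 47.5% of the dorsal total on average and 5.15% of the ventral one, and Lhx9 took 22.0% and 3.56%. Dbx1 took 6.31% of the dorsal total and 73.2% of the ventral one, from 62.4% in ventral library 3 to 79.9% in ventral library 2. Barhl2 took 6.43%, 7.75% and 6.45% of the dorsal total, against 5.26%, 3.76% and 11.3% of the ventral one, where ventral library 3 lay above the dorsal values and the others below.

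**Figure D3:**
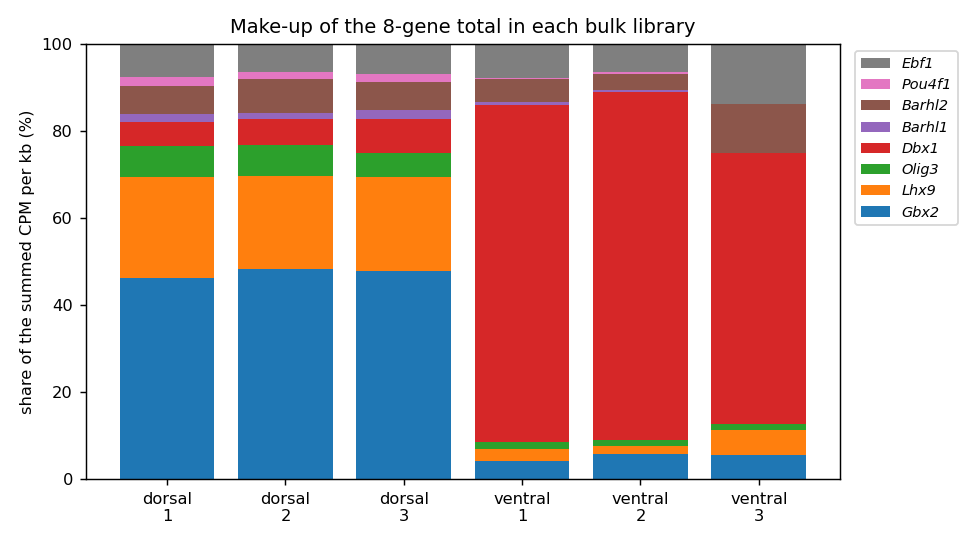
Share of each gene, in percent, in the summed CPM per kb of the 8 genes, for the 3 dorsal libraries at left and the 3 ventral libraries at right. Gbx2 and Lhx9 fill most of the dorsal columns and Dbx1 most of the ventral ones, and Ebf1 and Barhl2 are widest among ventral columns in ventral library 3.

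The ventral libraries did not carry these genes evenly. Lhx9, Barhl2 and Ebf1 were highest in ventral library 3, while Barhl1 and Pou4f1 were lowest there, with 0 and 1 counts. Gbx2, Olig3 and Dbx1 varied by at most 1.36 times between ventral libraries. The same library had the highest summed level of mammillary and tuberal hypothalamic genes, at 1221 CPM against 817 and 781 CPM in ventral libraries 1 and 2. It had the lowest sum of B cell genes (52.7 CPM against 126 and 230). Proliferation genes differed in direction there, with 304 counts of Top2a against 776 and 903 in ventral libraries 1 and 2, and 580 counts of Mki67 against 193 and 293. The part of these in the values of the 8 genes was not tested. Without ventral library 3 the log2 fold changes were 5.22 for Lhx9, 2.63 for Barhl2, 2.01 for Ebf1, 3.90 for Barhl1 and 4.23 for Pou4f1, and all 8 genes passed (adjusted p from 3.05e-05 to 0.00126, edgeR). Within dorsal, no gene varied by more than 1.52 times between libraries, the value of Olig3.

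**Figure D4:**
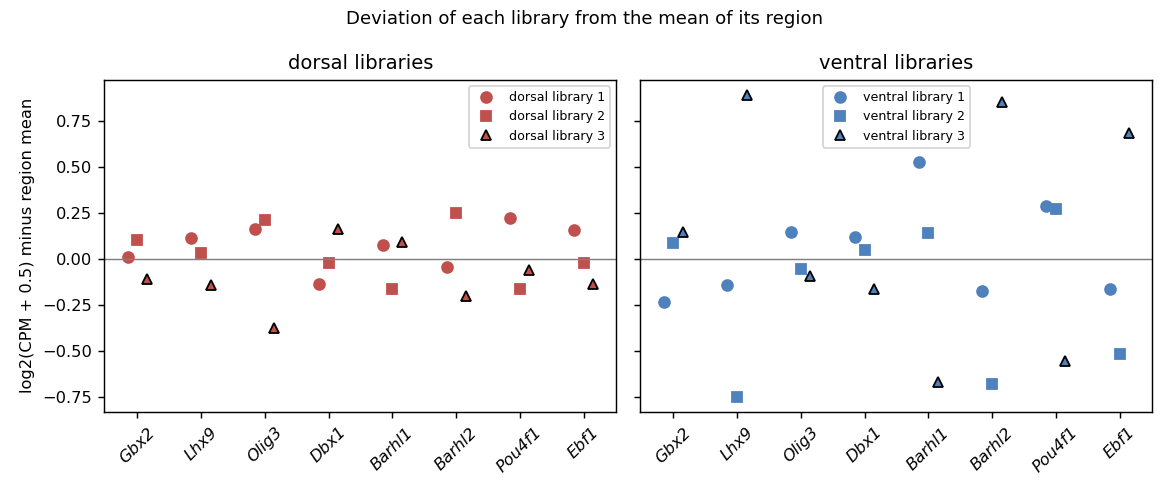
Deviation of each library from the mean of its region, in log2(CPM + 0.5), for the 8 genes, with dorsal libraries at left and ventral libraries at right and library 3 outlined in black. Ventral library 3 lies highest for Lhx9, Barhl2 and Ebf1 and lowest for Barhl1 and Pou4f1.

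Pairs of genes with like patterns were sought by the root mean square difference of their centred log2(CPM + 0.5) over the 6 libraries, in which the region difference makes up most of the distance. Among the 8, Barhl1 and Pou4f1 were closest at 0.18, followed by Barhl2 and Ebf1 at 0.25 and Olig3 and Pou4f1 at 0.31, and Gbx2 and Dbx1 were farthest apart at 3.27. Over all genes tested, Gbx2 was nearest to Tfap2d (0.20) and Irx2 (0.23), Lhx9 to Bhlhe23 (0.45) and Gbx2 (0.49), and Olig3 to Plxna2 (0.09) and Zic5 (0.09). Barhl1 was nearest to Ticrr (0.16) and Tal2 (0.17), Pou4f1 to Tal2 (0.16) and Barhl1 (0.18), and Barhl2 to Fancd2 (0.12) and Vav3 (0.17). The 0.5 added limits the distance between genes that are very low in one region, as for Tfap2d, whose fitted log2 fold change was 7.68, against 5.24 for Gbx2. Dbx1 was nearest to Kcnu1 (0.08) and Pon2 (0.10), and Ebf1 to E2f7 (0.11) and Ccne1 (0.14).

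Close relatives of the 8 genes mostly did not pass. Of 10 paralogs, 7 were tested, 1 was called higher in dorsal and 0 in ventral, with a median log2 fold change of -0.04. At an unadjusted p under 0.05 there were 2 in each direction, and DESeq2 called 2 in each direction. Lhx2, the relative of Lhx9 that acts in thalamus and cortex, was at 494 ± 35.0 CPM in dorsal, against 28.2 ± 0.746 CPM in ventral (log2 fold change 4.13, adjusted p = 3.77e-05, edgeR). Olig2 stood at 8.97 ± 1.93 CPM in dorsal, against 15.2 ± 1.75 CPM in ventral (-0.76, adjusted p = 0.121, edgeR), in the opposite direction to Olig3, and Olig1 at 1.47 ± 0.530 against 2.94 ± 1.16 CPM (adjusted p = 0.306, edgeR). Gbx1 stood at 0.474 ± 0.404 CPM in dorsal, against 3.01 ± 1.98 CPM in ventral (-2.66, adjusted p = 0.0755, edgeR).

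The Ebf relatives had the next values. Ebf2 was at 39.4 ± 10.6 CPM in the dorsal set and 16.98 ± 8.10 CPM in the ventral set (1.21, adjusted p = 0.0635, edgeR) and Ebf3 at 31.1 ± 11.6 and 21.2 ± 13.6 CPM (0.55, adjusted p = 0.472, edgeR), both highest in ventral library 3 within ventral, as Ebf1 was. Ebf4 was at 9.07 ± 1.62 and 9.32 ± 1.60 CPM (adjusted p = 0.952, edgeR). Dbx2, Pou4f2 and Pou4f3 were under the minimum for testing, with 8, 10 and 0 counts in dorsal against 12, 5 and 0 in ventral for Dbx2, 10, 14 and 12 against 0, 3 and 1 for Pou4f2, and 30, 18 and 3 against 0, 0 and 6 for Pou4f3. A p that misses the threshold does not show that a paralog had like levels in the 2 regions.

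Other genes of the diencephalon set these values in context, as lists of neighbouring domains. Of 12 tested caudal thalamic and zona limitans genes, 6 were called higher in dorsal and 2 in ventral (edgeR), with a median log2 fold change of 1.45. Tcf7l2, the Wnt effector of thalamic neurons, was at 1107 ± 130 CPM in dorsal, against 67.5 ± 7.36 CPM in ventral, and the proneural gene Neurog2 at 375 ± 3.96 and 34.6 ± 7.58 CPM. Shh, made by the zona limitans and by the ventral midline, had 2, 7 and 6 counts in dorsal against 147, 156 and 124 in ventral, and Prox1 was at 35.0 ± 8.41 CPM in dorsal diencephalon and 120.3 ± 13.7 CPM in ventral diencephalon.

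Of 8 tested epithalamic and pretectal genes, 8 were higher in dorsal (edgeR; median log2 fold change 3.44), with Irx2 at 28.6 ± 2.05 CPM in dorsal, against 0.493 ± 0.188 CPM in ventral. Rostral thalamic GABA genes divided, 4 of 10 higher in dorsal and 2 in ventral (median 0.49, also with Tal1 at its lower bound). Tal1 had 73, 98 and 123 counts in dorsal and none in ventral, and Gata3 was at 20.4 ± 4.12 against 0.774 ± 0.111 CPM. Sox14 went the other way, at 12.7 ± 1.09 CPM in dorsal, against 175 ± 9.10 CPM in ventral, and so did Nkx2-2, at 6.31 ± 0.869 and 37.8 ± 28.1 CPM.

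Of 9 prethalamic genes, 5 were higher in dorsal, with 3 in ventral (median 1.99). Pax6 was at 89.9 ± 5.22 CPM in dorsal, against 4.80 ± 0.698 CPM in ventral, and Isl1, which is also a hypothalamic gene, at 47.0 ± 0.266 and 426 ± 30.1 CPM. Of 10 thalamic maturation genes 5 were higher in dorsal, with 0 in ventral by edgeR, DESeq2 and the unadjusted p (median 1.14), including the ephrin receptor Epha8 at 20.04 ± 6.93 CPM in dorsal, against 1.16 ± 1.04 CPM in ventral. Neuron and progenitor lists had medians of 0.17 and 0.74. By edgeR, 3 of 10 neuron genes were called for dorsal and 1 for ventral. Among 10 progenitor genes, edgeR called 5 for dorsal and 0 for ventral, where DESeq2 called 1 for ventral.

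Marker genes of neighbouring tissue moved with the region. Of 9 telencephalic genes, 8 were higher in dorsal, with 0 in ventral by edgeR, DESeq2 and the unadjusted p (median log2 fold change 6.11), with a summed level of 975 to 1150 CPM in dorsal, against 27.1 to 39.6 CPM in ventral. Emx1, a cortical homeobox gene, had 486, 449 and 637 counts in dorsal and 0, 1 and 0 in ventral. Of 8 Cajal-Retzius genes, which mark early cortical surface neurons, 5 were higher in dorsal, with 1 in ventral (median 1.43), with Trp73 at 46.4 ± 11.1 CPM in dorsal, against 0.318 ± 0.196 CPM in ventral. Of 13 hypothalamic genes, 10 were higher in ventral and 1, Lhx1, in dorsal (median -3.67), with Rax at 0.0953 ± 0.125 CPM in dorsal, against 24.9 ± 4.34 CPM in ventral. Of 10 hindbrain and spinal cord genes, 9 were under the minimum for testing, and Egr2 was higher in ventral. The part of these markers in the differences of the 8 genes was not tested, and in bulk tissue fewer cells of a type and less RNA per cell cannot be told apart.

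In the E11.5 medial cortex, Lhx9 and Ebf1 were the only 2 of the 8 genes found in most Smart-seq2 libraries. Since no animal is named for the cells, each genotype is 1 sample, and the genotypes were compared without a test. Values are in TPM, transcript levels scaled per length and to one total per library, which keep no depth, so the depth is unknown. Detection means at least 1 TPM, and intervals are exact 95% Clopper-Pearson intervals that cover counting error over libraries only. Of 9 telencephalic genes, 7 were detected in at least 13 of the 25 libraries and Tfap2d was at 0 in all 25, with sums over the list of 87.5 to 275 TPM in null and 110.3 to 405 TPM in wild-type libraries. Axin2 itself ranged from 0 to 22.4 TPM in null and from 4.32 to 35.9 TPM in wild-type libraries, with medians of 3.28 and 13.2 TPM, so the ranges of the genotypes overlapped. These values cover the whole gene and do not show which part of it the reads came from.

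Lhx9 had a lowest, median and highest value of 0.55, 15.5 and 43.7 TPM in null libraries, against 1.17, 19.55 and 77.6 TPM in wild-type libraries. It was detected in 12 of 13 null (92.3%, interval 64.0% to 99.8%) and 12 of 12 wild-type libraries (interval 73.5% to 100%), and the ranges overlapped almost wholly. The null minus wild-type difference of mean log2(TPM + 1) was -0.37, beside SDs of 1.17 in null and 1.49 in wild-type libraries.

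Ebf1 had values of 0, 2.56 and 23.6 TPM in null libraries, against 0, 2.17 and 21.3 TPM in wild-type libraries. It was detected in 7 of 13 null (53.8%, interval 25.1% to 80.8%) and 9 of 12 wild-type libraries (75%, interval 42.8% to 94.5%), and 4 null libraries and 1 wild-type library were at 0. The difference of mean log2(TPM + 1) was -0.07. The 10 mesenchyme genes, read beside Ebf1 in bulk, summed to 22.5 to 210.4 TPM in null and 50.6 to 270.6 TPM in wild-type libraries, with 5 of them detected in at least 13 of the 25, and their part in the Ebf1 values was not tested. The 7 B cell genes summed to at most 5.1 TPM in null and 9.6 TPM in wild-type libraries. Its relative Ebf2 was found at a like rate, in 8 of 13 null and 9 of 12 wild-type libraries.

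Pou4f1 was detected in 4 of 13 null (30.8%, interval 9.09% to 61.4%) and 4 of 12 wild-type libraries (33.3%, interval 9.93% to 65.1%). Its median was 0 TPM in each genotype and its highest values were 18.0 TPM in null and 15.2 TPM in wild-type libraries, with a difference of mean log2(TPM + 1) of 0.13. All 8 libraries with Pou4f1 also had Lhx9, and 6 of them had Ebf1. Over all 25 libraries, Lhx9 was detected in 24 and Ebf1 in 16, so the overlap is near those shares. Genes of unlike cell types were also detected together. The neuron gene Dcx, the progenitor gene Top2a and the mesenchyme gene Col3a1 were each found in all 25 libraries. This limits what detection in the same library can show.

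The other 5 genes were close to absent from these libraries. Olig3 was detected in 1 null library at 3.53 TPM and in 1 wild-type library at 20.9 TPM, Barhl2 in 1 null library at 13.4 TPM and in 0 wild-type libraries. Gbx2 was detected in 0 of 13 null libraries, which allows a share of up to 24.7%, and in 1 wild-type library at 19.02 TPM. Dbx1 was detected in 0 null libraries and 1 wild-type library at 4.25 TPM, and Barhl1 in 0 of either, with a highest value of 0.41 TPM in 1 wild-type library. Gbx2 and Dbx1, the most abundant of the 8 per length in dorsal and in ventral diencephalon, were thus each seen in 1 of 25 cortical libraries.

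**Figure D5:**
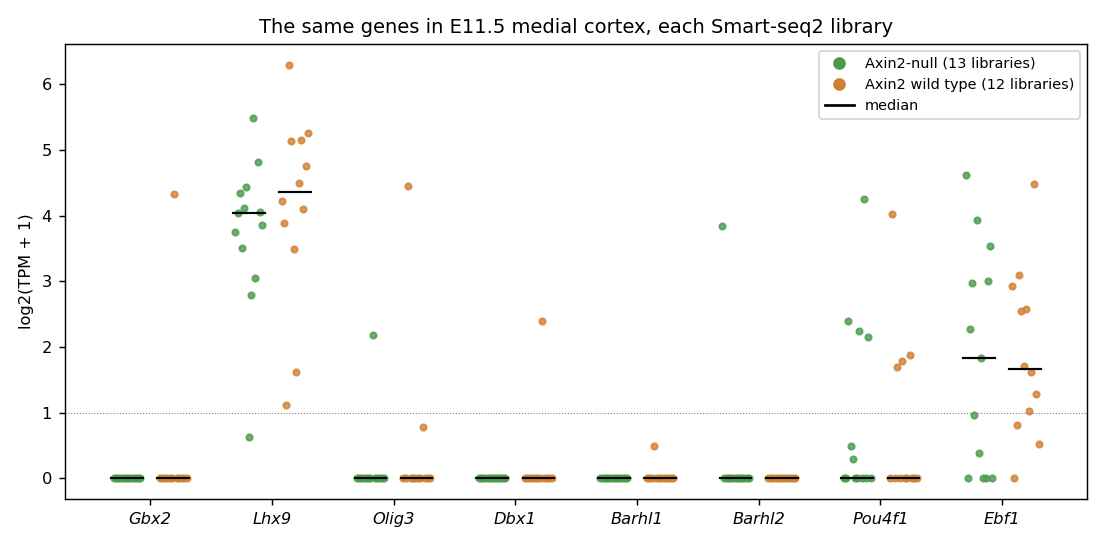
Expression of the 8 genes in each Smart-seq2 library as log2(TPM + 1), Axin2-null libraries in green left of wild-type libraries in orange, with the median of each genotype as a black bar and the detection limit of 1 TPM as a dotted line. Lhx9 lies above the line in all but 1 library and Ebf1 in most, Pou4f1 in 4 of each genotype, and the other 5 genes are at or under the line in all but 1 or 2 libraries each, or in all for Barhl1.

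No gene of the 8 passed a difference of 1 in mean log2(TPM + 1) between genotypes. Of the 4 with a mean of at least 1 TPM (Lhx9, Olig3, Pou4f1 and Ebf1) 0 passed, where 9.52% of 13680 genes did so in either direction, a description of these libraries with no test. Those genes were mostly lower in null libraries, 1113 against 190 higher, and the median difference over the 13680 was -0.22. The differences of the 4 were -0.37 for Lhx9, -0.27 for Olig3, 0.13 for Pou4f1 and -0.07 for Ebf1. Olig3 reached the minimum, at a mean of 1.004 TPM, mainly through 1 wild-type library at 20.86 TPM. Its median was 0 TPM in each genotype. The other 4 genes had means under 1 TPM, and were left out of that count. Null libraries held 0 to 4 of the 8 genes and wild-type libraries 1 to 3. The number of genes at 1 TPM or more was 7863 to 11852 in null and 8693 to 12209 in wild-type libraries, and its part in the shares detected was not tested.

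In 2 null and 2 wild-type libraries a single clone-named gene, CT010467.1, held over 20% of the TPM. Without these 4 libraries Lhx9 was detected in every remaining null library, Olig3 in no wild-type library and in 9.09% of 11 null libraries, and the Olig3 difference of mean log2(TPM + 1) turned to 0.12, where it was -0.27 over all libraries.

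Over the 25 libraries, given as a description of libraries that differ in depth and make-up, Lhx9 had a Pearson r of 0.80 with the mean log2(TPM + 1) of 10 neuron genes, 0.53 with that of 10 progenitor genes and 0.46 with the number of genes at 1 TPM or more. Ebf1 had an r of 0.42 with the neuron genes, 0.17 with the progenitor genes and 0.17 with Lhx9. The genes with the highest r were Slc25a44 and Cnrip1 for Lhx9 (0.79 each), Nebl (0.715, found in 5 libraries) and Ftx (0.70) for Pou4f1, and Pqlc2 (0.68) and Arhgef10 (0.67) for Ebf1. Each of the 10 neuron genes was detected in at least 18 of the 25 libraries and each of the 10 progenitor genes in at least 23, which the labels describe as neural progenitor cells.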

How the data were processed

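The submitters' processing notes list Trimmomatic, STAR (2.7.0a) and featureCounts beside mm10 and GRCm38, with no roles. Although the file of bulk values is called TPM, column totals run from 17604411 to 20838225, and 46.6% of values above 0 are whole within 0.0001. The authors' bulk values were therefore handled as estimated counts. The deposited Smart-seq2 table holds TPM (columns sum to 999999.57 to 1000000.7), as the authors made it. Its columns name a genotype by letter and could not be tied to numbered samples.

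Estimated counts were rounded (17604166 to 20838002 per library) and tested with edgeR 4.0.16 in R 4.3.3 (TMM scaling, quasi-likelihood F test) on genes averaging 1 CPM or more over the 6 libraries, with Benjamini-Hochberg adjustment over all genes tested and a threshold of 0.05. The SE is the log2 fold change divided by the root of F. Alternatives were DESeq2 1.42.0, its size factors, other filters, each library left out and a replicate block. The fit was tested on simulated data. Annotation and exon lengths are GENCODE M21 on GRCm38, which gave a symbol to 34651 of 34865 bulk and 55227 of 55487 Smart-seq2 identifiers. The closest replicates, dorsal libraries 1 and 2, differed by a chi-square statistic of 8.0 per gene, more than sampling noise, and each library was counted.

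The 8 genes and the 15 gene lists were chosen with earlier results of these data known. Named beside the 8 genes are every paralog, up to 2 genes per list and direction with the largest fold change among those past the threshold, the 2 genes nearest to each of the 8 in bulk, and the 2 with the highest r for those detected in at least 5 Smart-seq2 libraries. Not every gene named by this rule is printed, and Neurog2, Mki67, Col3a1 and Prrx1 were named after their values were seen.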

Additional observations from a re-analysis of the deposited data

How the results depend on the processing

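Over the alternatives run, Gbx2, Lhx9, Olig3, Dbx1 and Pou4f1 kept their direction and their call, with log2 fold changes, dorsal over ventral, of 5.11 to 5.30, 4.32 to 5.22, 4.15 to 4.44, -1.62 to -1.46 and 4.23 to 5.09. Barhl1, Barhl2 and Ebf1 kept their direction (3.90 to 5.33, 1.72 to 2.63 and 1.37 to 2.01) and lost the call in 2, 5 and 1 alternatives, with a highest adjusted p of 0.0608, 0.0907 and 0.0567 (edgeR). The filter of 0.5 CPM in both regions left Barhl1 and Pou4f1 untested, so that 5 genes were called higher in dorsal there, and without single libraries it was 5 to 7. Libraries of the same replicate number correlated at 0.093, 0.126 and 0.148 in their deviations from the region means. Libraries of different numbers ran from -0.173 to 0.178, the highest being dorsal library 2 with ventral library 1. These correlations cannot settle whether the numbers pair samples, and the main fit had no pairing. With the replicate block, dorsal had 6 of the 8 genes higher and ventral 1, Barhl2 having 2.19 with an adjusted p of 0.0534 (edgeR), and the ratio of Barhl1 to Barhl2 paired by number gave 1.35 with an exact p of 0.25, the smallest 3 pairs allow. Over all genes, 1542 were higher in dorsal by DESeq2 and 750 higher in ventral with 0.5 CPM in both regions. Without single libraries, 492 to 1647 genes were higher in dorsal and 851 to 1850 higher in ventral, and the ratio difference ran from 0.58 to 1.76. The causes were not tested. Barhl1 and Pou4f1 had 0 to 13 counts per library in ventral, so their fold changes rest on few ventral counts. Leaving out the 4 Smart-seq2 libraries was chosen after seeing the data.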
